A study of Mus musculus with 10 samples.

Results

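The myelin genes of mature oligodendrocytes are described here by 9 genes, Mbp, Mobp, Mal, Mag, Mog, Opalin, Cldn11, Cnp and Ugt8a, which were picked by their symbols out of 50559 genes counted in each library. All 9 passed the filter on low counts. RNA was sequenced from 4 MYC/SMARCA4 tumors, 3 P7 cerebella and 3 tumors of the Sonic Hedgehog (SHH) medulloblastoma (MB) model, 10 libraries in total. The comparisons ask how the new tumors differ from the tissue of origin and from an established medulloblastoma. MYC/SMARCA4 tumors grew from granule cell precursors (GCPs) of Math1-creERT2::Smarca4fl/fl pups, which had been given tamoxifen at P3 and whose GCPs were afterwards transduced with a lentivirus carrying murine Myc and GFP. The GCPs were transplanted without sorting into the cerebella of immunodeficient CD1nu/nu hosts, and tumors 1 to 4 were taken at ages of 112, 96, 89 and 79 days. P7 cerebella came from 7-day-old mice of the same Math1-creERT2::Smarca4fl/fl genotype after 0.4 mg of tamoxifen on postnatal day 3. Loss of Smarca4 was thus induced in their Math1 lineage as well. The paper found SMARCA4 protein lost in only a part of GCPs cultured after this induction, but in all tumor cells. SHH MB came from Math1-cre::Smofl/wt mice, for which the labels also give an age of 7 days. In both models Math1 directs recombination to the granule cell lineage and not to oligodendrocytes. All tissue was formalin-fixed and paraffin-embedded (FFPE). Tumors were sampled as punches, which take every cell within their area, including those of the host brain, whereas the P7 samples are whole cerebella. Between MYC/SMARCA4 tumors and either other group, age and transplantation into a CD1nu/nu host differ together. Tissue type and the Myc virus differ as well against P7 cerebella, and genotype and the Myc virus against SHH MB, and these cannot be told apart. SHH MB and P7 cerebella share the labelled age and were not transplanted, but differ together in genotype, labelled tamoxifen and tissue type.

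Oligodendrocytes wrap axons of the central nervous system in myelin, a stack of lipid-rich membrane that speeds conduction. Their precursors first become committed, newly formed oligodendrocytes and then switch on the genes of the myelin sheath, under lineage factors such as Olig2, Sox10 and Myrf. In the mouse cerebellum this takes place mainly after birth and proceeds through the first postnatal weeks, so that a cerebellum at P7 is at an early point of myelination and the adult cerebellum holds a large myelinated white matter. In bulk tissue, fewer cells of a type and less RNA per cell cannot be told apart.

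The 9 genes fall into 3 roles. Mbp, Mobp and Mal encode proteins of the compact sheath. Mag, Mog, Opalin and Cldn11 encode proteins of the surface and of adhesion. Cnp and Ugt8a encode enzymes, a phosphodiesterase of non-compacted myelin and the transferase that makes the galactolipids of the sheath. On GRCm39 with GENCODE M39 they lie on chromosomes 18 (Mbp), 9 (Mobp), 2 (Mal), 7 (Mag), 17 (Mog), 19 (Opalin), 3 (Cldn11 and Ugt8a) and 11 (Cnp). Exons of 6 of them, Mbp, Mobp, Mag, Mog, Opalin and Cnp, overlap the span of a gene on the opposite strand. Among these genes are the protein-coding Zfp57 at Mog, Dntt at Opalin and Dnajc7 at Cnp. Exons of Mobp additionally overlap the span of Gm38642 on its own strand. A span includes introns, and whether exons of both genes overlap was not checked. The strand setting of the counting is not given in the sources used here. Reads of any exons shared in this way may be assigned to either gene or dropped, whereas Mal, Cldn11 and Ugt8a have no such overlap.

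Sequence upstream of the start is shown for Mal and Mobp, the members whose levels relative to the others differed most between tumors and the other groups, and for Cnp, which followed the members' common pattern closely. The sequences are from the promoter table of RefSeq (GRCm38.p6), were placed on GRCm39 by an exact match, and are printed 5′ to 3′ on the gene's own strand without exonic bases. Mal lies at chr2:127498616-127498865 (minus strand), Mobp at chr9:119978558-119978683 (plus strand) and Cnp at chr11:100465515-100465729 (plus strand). The Mobp stretch precedes an internal start, since the annotated span of Mobp in GENCODE begins at 119973770. Capitals mark ACAAAG, the letters typically bound by SOX factors, and CTGGCAC or CTGGTAC, the letters bound by Myrf, on either strand.
Mal: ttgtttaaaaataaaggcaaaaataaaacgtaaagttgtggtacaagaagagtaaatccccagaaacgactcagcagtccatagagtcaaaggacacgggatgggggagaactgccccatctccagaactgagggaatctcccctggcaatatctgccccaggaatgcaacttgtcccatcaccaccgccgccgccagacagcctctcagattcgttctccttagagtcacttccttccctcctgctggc
Mobp: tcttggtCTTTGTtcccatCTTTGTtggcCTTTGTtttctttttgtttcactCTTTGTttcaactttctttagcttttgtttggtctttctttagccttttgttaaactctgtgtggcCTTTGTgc
Cnp: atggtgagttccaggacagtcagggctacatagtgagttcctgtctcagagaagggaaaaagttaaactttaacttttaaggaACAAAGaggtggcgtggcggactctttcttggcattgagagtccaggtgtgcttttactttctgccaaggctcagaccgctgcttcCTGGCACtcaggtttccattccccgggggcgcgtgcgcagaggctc
The table holds 8 of the 9 members with 10 start sites. In the 250 bases before the start, Mobp has 6 matches of ACAAAG, of which 5 lie in the printed stretch, Cnp has 1, and Mal has no ACAAAG and neither CTGGCAC nor CTGGTAC. Over all members, 5 of 10 promoters hold ACAAAG, against 16.5% of 32851 promoters in the table, 3 hold CTGGCAC (4.2% of the table) and 1 holds CTGGTAC (1.8%). The first and second start of Mag overlap and share the same matches, and by gene ACAAAG was found in 4 of 8 members and CTGGCAC in 2 of 8. CANNTG was found in 5 of 10 (66.2% of the table), and ACAAT (27.7%) and TATAAA (12.4%) in none. A match of letters is no evidence that a factor binds there.

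Total counts per library ranged from 5663491 to 9352109, which sets the lowest level that 3 counts represent to between 0.307 and 0.744 CPM, the count scaled to a common library size with TMM factors. These factors were 0.62 to 1.28 in tumors and 1.008 to 1.196 in the other libraries. The tumors stood apart from each other, and tumor 1 was most unlike the rest: chi-square per degree of freedom between counts of tumor pairs was 31.9 to 124, compared with 4.29 to 7.05 in pairs of the other groups. Mitochondrial genes took 6.36% of the counts in tumor 1, 2.29 to 2.94% in tumors 2 to 4 and 1.25 to 1.59% in the other libraries. Smarca4 was at 136 to 244 CPM in tumors, 221 to 282 CPM in P7 cerebella and 490.5 to 590 CPM in SHH MB, and these counts over the whole gene do not check the deleted part. Myc was at 152, 368, 1587 and 1016 CPM in tumors 1 to 4, against 13.0 to 14.3 CPM in P7 cerebella and 33.7 to 45.7 CPM in SHH MB.

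As a sum over the 9 genes, the level was 3604, 666, 116 and 366 CPM in MYC/SMARCA4 tumors 1 to 4. It was 808, 982 and 913 CPM in P7 cerebella 1 to 3, and 347, 312 and 124 CPM in SHH MB 1 to 3. Tumor 1 was above each P7 cerebellum, tumors 2 to 4 were below each of them, and tumor 3 was below each SHH MB. The 9 genes together made up 0.222% of all counts in tumor 1 and 0.0146% in tumor 3.

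**Figure D1:**
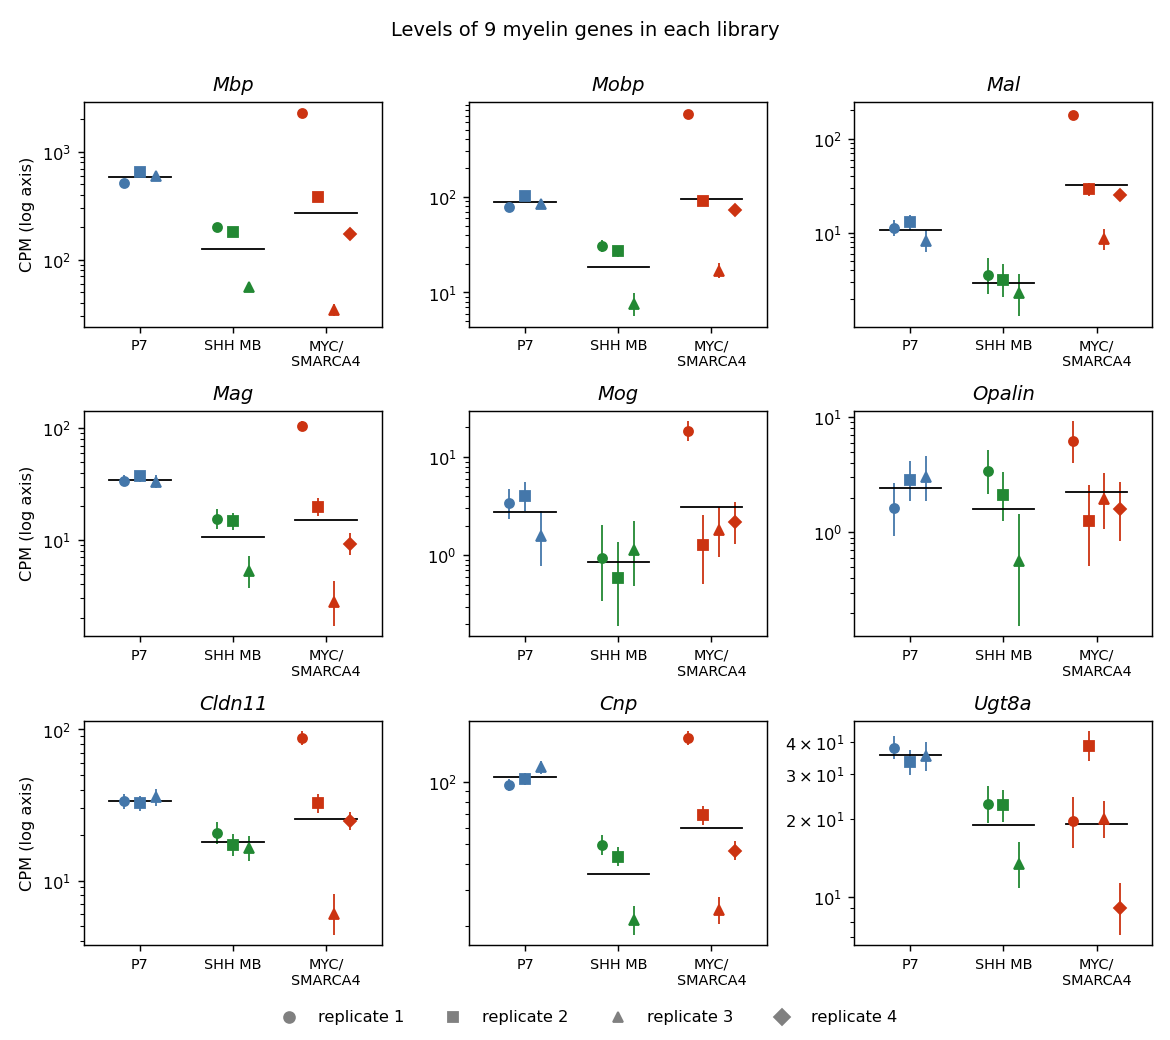
Level of each of the 9 myelin genes per library, in CPM on a log axis; symbols give the replicate number, vertical bars the 95% Poisson interval of the count, and horizontal lines the geometric mean of a group. Tumor 1 is the highest of the 10 libraries for 8 of 9 genes, all but Ugt8a.

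Mbp, the basic protein that holds the cytoplasmic faces of compact myelin together, had the highest level per kilobase of exon in each library except tumor 3, where Cnp was higher, and SHH MB 3, where Cldn11 was higher. Its levels in CPM were 2289, 385, 34.0 and 174 in MYC/SMARCA4 tumors 1 to 4, a range of 67.3-fold. In P7 cerebella they were 512, 654 and 595 CPM, and in SHH MB 200, 181 and 56.1 CPM. Tumor 1 lay above and tumors 2 to 4 lay below each P7 cerebellum, so that the groups overlapped. SHH MB lay below P7 cerebella without overlap.

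Mobp, a small basic protein of the compact sheath, was counted at 738, 90.2, 16.9 and 72.9 CPM in tumors 1 to 4. P7 cerebella had 78.1, 103 and 84.7 CPM. SHH MB had 30.6, 27.0 and 7.53 CPM. Apart from tumor 3, which lay between the SHH MB libraries, each tumor was above each SHH MB, and tumors 2 and 4 were close to P7 cerebella.

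Mal, a proteolipid of the compact sheath that takes part in sorting lipids and proteins to the myelin membrane, was at 178, 29.2, 8.54 and 25.4 CPM in tumors 1 to 4. These levels rest on 718, 162, 61 and 208 counts. P7 cerebella had 11.2, 12.9 and 8.28 CPM (110, 118 and 58 counts), and SHH MB had 3.58, 3.18 and 2.27 CPM (23, 27 and 16 counts). Mal was the member in which tumors stood highest against the other groups: 3 of 4 tumors exceeded each P7 cerebellum, and each tumor exceeded each SHH MB, although tumor 3 was above only 1 P7 cerebellum.

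Mag, the adhesion protein that faces the axon, had 105, 19.8, 2.8 and 9.27 CPM in tumors 1 to 4. Its levels were 34.0, 37.1 and 33.2 CPM in P7 cerebella and 15.6, 14.7 and 5.26 CPM in SHH MB. Tumor 3 had the lowest Mag of all libraries, on 20 counts.

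Mog, on the outermost surface of the sheath and among the last genes to be switched on, had few counts in most libraries. It had 74, 7, 13 and 18 counts in tumors 1 to 4, or 18.3, 1.26, 1.82 and 2.20 CPM. P7 cerebella had 33, 37 and 11 counts (3.37, 4.04 and 1.57 CPM) and SHH MB had 6, 5 and 8 counts (0.93, 0.59 and 1.14 CPM). The 95% Poisson interval of tumor 2 reached from 0.506 to 2.596 CPM and that of SHH MB 3 from 0.491 to 2.24 CPM, so that neighbours in this order cannot be separated by their counts.

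Opalin, a membrane glycoprotein of oligodendrocytes, was lower still, with 25, 7, 14 and 13 counts in tumors 1 to 4. It had 16, 26 and 21 counts in P7 cerebella and 22, 18 and 4 in SHH MB. In CPM this is 6.20, 1.26, 1.96 and 1.59 in tumors, 1.63, 2.84 and 3.00 in P7 cerebella, and 3.42, 2.12 and 0.57 in SHH MB. The 3 groups overlapped, and tumor 1 alone was above each P7 cerebellum and each SHH MB.

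Cldn11, the claudin of the tight junctions between myelin lamellae, was at 88.2, 32.6, 6.02 and 24.9 CPM in tumors 1 to 4. P7 cerebella were close to each other at 33.5, 32.4 and 35.7 CPM, as were SHH MB at 20.7, 17.2 and 16.3 CPM. Tumor 2 lay within the range of P7 cerebella, and tumor 3 below each other library.

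Cnp, which is switched on earlier in the lineage than Mog, had 163, 68.7, 23.9 and 46.5 CPM in tumors 1 to 4. It had 96.0, 103 and 117 CPM in P7 cerebella and 49.6, 43.5 and 21.4 CPM in SHH MB. Again only tumor 1 was above P7 cerebella.

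Ugt8a, the galactosyltransferase of galactolipid synthesis, went its own way, at 19.6, 38.5, 20.01 and 9.03 CPM in tumors 1 to 4. P7 cerebella had 37.9, 33.2 and 35.1 CPM and SHH MB had 22.9, 22.6 and 13.4 CPM. Tumor 1, which had the highest level of each other member, was within the range of SHH MB for Ugt8a.

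Compared per kilobase of annotated exon, the order of the genes in P7 cerebella was Mbp with 60.2 ± 7.3 CPM per kb (SD, n = 3), Cnp with 26.0 ± 2.7, Cldn11 with 13.8 ± 0.67, Mobp with 9.86 ± 1.4 and Mag with 7.02 ± 0.41. Mal with 3.82 ± 0.83 CPM per kb and Ugt8a with 3.33 ± 0.22 did not differ beyond their spread, and Mog with 1.31 ± 0.56 and Opalin with 0.395 ± 0.12 came last. In SHH MB the order began in the same way, and neighbours from Mbp (14.95 ± 8.02 CPM per kb, SD, n = 3) to Cldn11 (7.34 ± 0.94) and from Mobp (2.42 ± 1.4) to Ugt8a (1.85 ± 0.51) were within their spread. Mal was lower there, at 1.07 ± 0.24 CPM per kb. In MYC/SMARCA4 tumors the SD exceeded the mean for Mbp, Mobp, Mal, Mag and Mog (Mbp 73.9 ± 108 CPM per kb, SD, n = 4), so that group means carry little information and the rank within a library is more useful. By CPM per kb, Mal ranked 3, 4, 3 and 4 of the 9 genes in tumors 1 to 4. It ranked 6, 6 and 7 in P7 cerebella and 7 in each SHH MB.

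Against P7 cerebella, tumors showed no member that passed the test. With edgeR's quasi-likelihood test and Benjamini-Hochberg adjustment over 29952 genes, 0 of 9 genes passed at 0.05, where 6.25% of all genes tested did (3.99% as higher and 2.27% as lower in tumors). At an unadjusted p under 0.05, 1 of 9 was counted, against 25.2% of all genes. DESeq2 called 1 member, Mal, where it called 9.29% of its genes as higher, and so did edgeR without a filter on low counts (2.22%). Limma on the deposited log2 values called 0, where it called 2.43% of its genes. At the stricter thresholds of the study, 0 of 9 passed in this comparison and in both that follow, where 0.29%, 0.601% and 0.01% of all genes did. The fitted level was higher in tumors for 6 genes and lower for 3, where 48.1% of all genes were fitted higher and 51.9% lower. Each of the 9 overlapped between the groups, where 10.3% of all genes were higher and 10.7% lower without overlap. The median log2 fold change was 0.15 over the members and -0.05 over all genes tested, and with limma the latter was -0.23.

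Mal had the largest difference in this comparison, a log2 fold change of 2.47 ± 0.79 (SE) with an adjusted p of 0.0813 by edgeR. Mobp followed with 1.37 ± 0.93 (adjusted p = 0.353 by edgeR) and Mog with 0.92 ± 0.83 (adjusted p = 0.477). Mbp (0.30 ± 0.95), Cldn11 (0.15 ± 0.58), Opalin (0.10 ± 0.67) and Mag (-0.05 ± 0.83) were near 0 with wide errors, and for Mbp the 95% interval reached from -1.75 to 2.34. The enzymes had the lowest values, Cnp with -0.49 ± 0.51 and Ugt8a with -0.70 ± 0.39 (adjusted p = 0.269 by edgeR).

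The sign of the members' median was not stable. It was -0.28 with limma, -0.24 with at least 10 counts in every library, -0.10 with the replicate block, and -0.063 and -0.043 with only the 2 groups and without mitochondrial and rRNA-like genes. Without tumor 1 it was -0.67, and 2 members passed the test with lower levels in tumors: Mag at -1.72 (adjusted p = 0.0440) and Cnp at -1.17 (adjusted p = 0.0478, both edgeR), where 5% of all genes passed as lower. Mbp was then at -1.55 and Mobp at -0.55. Mal was higher in tumors in each of these fits, at 0.97 without tumor 1 (adjusted p = 0.116 by edgeR), and passed without tumor 3 at 2.56 (adjusted p = 0.0104), where 11.8% of all genes passed as higher.

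**Figure D2:**
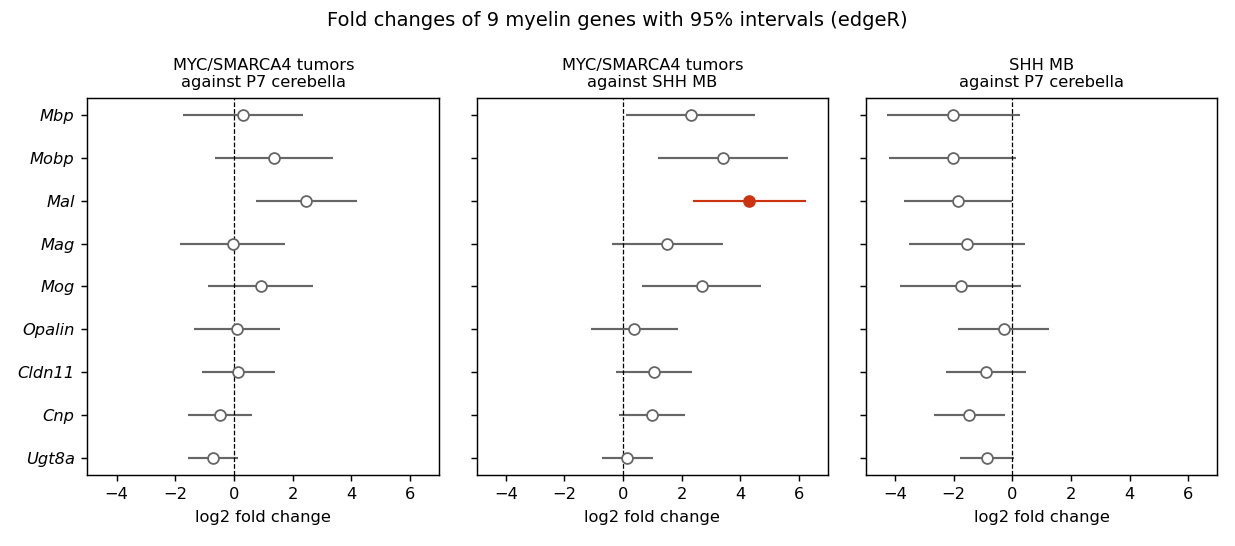
Log2 fold change of each gene in the 3 comparisons with its 95% interval from edgeR; a filled red point marks an adjusted p of at most 0.05 over all genes tested. Mal against SHH MB is the only filled point.

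Against SHH MB, the fitted level of all 9 genes was higher in MYC/SMARCA4 tumors, where 50.4% of all genes tested were fitted higher. This comparison uses the same 4 tumors as the one above and is not independent of it. Mal, the sorting proteolipid, rose by a log2 fold change of 4.31 ± 0.89 (SE), or 19.8-fold (adjusted p = 0.0178 by edgeR, higher in 4 of 4 tumors than in each SHH MB), with a 95% interval from 2.38 to 6.23. It was the 1 of 9 genes that passed the test, where 2.43% of all genes tested passed as higher and 4.68% in either direction. At an unadjusted p under 0.05, 4 of 9 were counted, against 19.8% of all genes. The median log2 fold change was 1.51 over the members and 0.01 over all genes.

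Among the other genes of compact myelin, Mobp had a log2 fold change of 3.40 ± 1.03 (adjusted p = 0.0817 by edgeR) and Mbp of 2.30 ± 1.02 (adjusted p = 0.232). Among the surface proteins, Mog had 2.68 ± 0.94 (adjusted p = 0.130 by edgeR), Mag 1.51 ± 0.88, Cldn11 1.06 ± 0.60 and Opalin 0.39 ± 0.69. Cnp had 0.98 ± 0.52 and Ugt8a 0.15 ± 0.40, and the 95% interval of Ugt8a reached from -0.71 to 1.009. Mal and Mog were the 2 genes without overlap between the groups, where 7.83% of all genes were higher without overlap, and Mog rests on 5 to 8 counts per SHH MB.

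DESeq2 called 3 members higher against SHH MB, Mobp, Mal and Mog (7.87% of the genes it tested), edgeR without a filter called Mobp and Mal (1.68%), and limma on the deposited log2 values called Mal (0.692%). The call for Mal held in 12 of 16 alternatives, with adjusted p-values from 7.26e-07 to 0.114 over all of them. It was lost when only these 2 groups were fitted (adjusted p = 0.0756) and when any of the 3 SHH MB was left out (0.0900, 0.0954 and 0.114 without SHH MB 1, 2 and 3, by edgeR), where the fold change stayed between 4.14 and 4.44. Without tumor 1, Mal was at 2.79 (adjusted p = 0.00162 by edgeR, where 5.91% of all genes passed as higher), and the median of the members was 0.27. Without tumor 3, 5 members passed as higher, Mbp, Mobp, Mal, Mog and Cldn11, where 9.57% of all genes did.

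Between both comparison groups, SHH MB had lower fitted levels than P7 cerebella for all 9 genes, where 56.2% of all genes were fitted lower. The log2 fold changes were -2.01 ± 1.05 (SE) for Mbp, -2.02 ± 1.00 for Mobp and -1.84 ± 0.85 for Mal. They were -1.55 ± 0.91 for Mag, -1.76 ± 0.96 for Mog, -0.29 ± 0.72 for Opalin and -0.91 ± 0.63 for Cldn11, and -1.46 ± 0.56 for Cnp and -0.85 ± 0.42 for Ugt8a. In 8 of 9 genes, all but Opalin, each SHH MB was below each P7 cerebellum, where 19% of all genes were lower without overlap. None of the 9 passed the edgeR test with all 10 libraries, where 0.224% of all genes tested did. Cnp alone had an unadjusted p under 0.05, against 8.8% of all genes. DESeq2, which gave an adjusted p for 8 of the 9, called 0 of them where it called 2.39% of its genes, and limma called 0 where it called 0.145%. With so few calls over all genes, these counts say little about the members. The fit shares its estimate of the spread over all groups, tumors included. When only SHH MB and P7 cerebella were fitted, the same 8 genes passed as lower, with adjusted p-values from 4.33e-07 (Mbp) to 0.0113 (Mog) by edgeR, where 10.3% of all genes did. Opalin was at -0.26 in that fit (adjusted p = 0.766).

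The share of each gene in the counts of the 9 describes the mix of myelin transcripts within a library. Mal made up 4.94, 4.38, 7.36 and 6.93% of the counts of the 9 genes in tumors 1 to 4. It made up 1.39, 1.31 and 0.906% in P7 cerebella and 1.03, 1.02 and 1.83% in SHH MB. The lowest share in a tumor was thus above the highest share in any other library. Mobp made up 20.5, 13.5, 14.6 and 19.9% in tumors, and 9.28 to 10.4% in P7 cerebella and 6.07 to 8.83% in SHH MB, again without overlap. How many other genes would separate in this way was not counted. The share of Mbp was 63.4 to 66.6% in P7 cerebella and took a wider range in tumors, from 29.3% in tumor 3 to 63.5% in tumor 1. Ugt8a spanned 0.543% in tumor 1 to 17.3% in tumor 3.

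**Figure D3:**
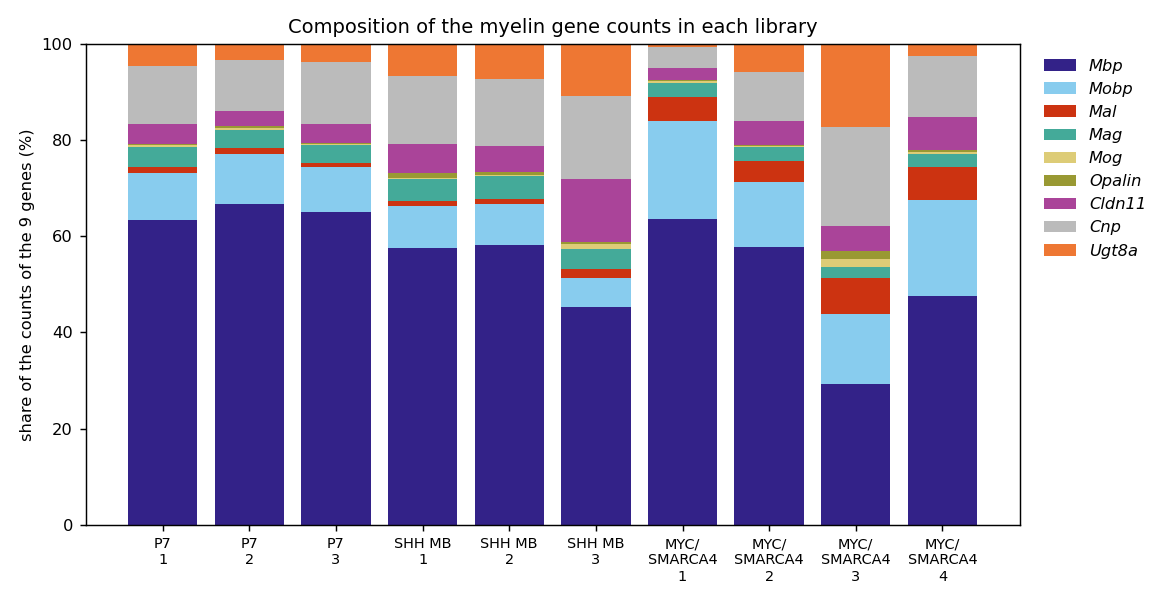
Share of each gene in the summed counts of the 9 myelin genes, per library, in percent. The red band of Mal is wider in the 4 MYC/SMARCA4 tumors (4.38 to 7.36%) than in the other libraries (0.906 to 1.83%), and the share of Ugt8a spans 0.543% in tumor 1 to 17.3% in tumor 3.

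A ratio of 2 genes within a library does not depend on its depth or scaling. The log2 ratio of Mal to Mbp counts was -3.69, -3.72, -1.99 and -2.78 in tumors 1 to 4, -5.51 to -6.17 in P7 cerebella and -4.63 to -5.83 in SHH MB. Mal and Mobp were the 2 members whose ratio to Mbp was higher in tumors without overlap, in both comparisons. Among 29951 other genes tested, 3.29% had a ratio to Mbp that was higher in tumors than in P7 cerebella without overlap, and 0.207% had one that was higher than in SHH MB. Of the 8 ratios of Mal to another member, 6 were higher in tumors without overlap against P7 cerebella, and 6 against SHH MB. For partners other than Mbp, the share over all genes was not counted, so these counts of pairs are a description only. Over all 36 pairs of members, 8 ratios did not overlap between tumors and P7 cerebella, and 10 did not overlap between tumors and SHH MB. Between SHH MB and P7 cerebella 17 of 36 did not overlap, among them 5 of 8 ratios each of Cldn11 and Ugt8a, which were higher relative to their partner in SHH MB. There, however, 88.9% of all genes tested were higher relative to Mbp, so that this reading does not set Cldn11 or Ugt8a apart. These pairs were inspected together, and only the ratios of Mog to Cnp and of Mobp to Cnp were tested, as given next.

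The ratio of Mog, a late gene, to Cnp, an earlier one, was tested by two-sided exact permutation. Its log2 value was -4.26 ± 1.13 (SD, n = 4) in tumors and -5.24 ± 0.85 (SD, n = 3) in P7 cerebella, which did not differ beyond the spread (exact permutation test, p = 0.229, where the smallest possible p is 0.0286). SHH MB had -5.39 ± 1.03 (SD, n = 3), with p = 0.229 against tumors and p = 1 against P7 cerebella by the exact permutation test, where the smallest possible p of the latter is 0.1. With Mobp in place of Mog, tumors had 0.68 ± 1.12 (SD, n = 4), P7 cerebella -0.26 ± 0.23 and SHH MB -0.96 ± 0.47 (SD, n = 3 each). The exact permutation p-values were 0.229 for tumors against P7 cerebella, 0.0571 for tumors against SHH MB and 0.1 for SHH MB against P7 cerebella.

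**Figure D4:**
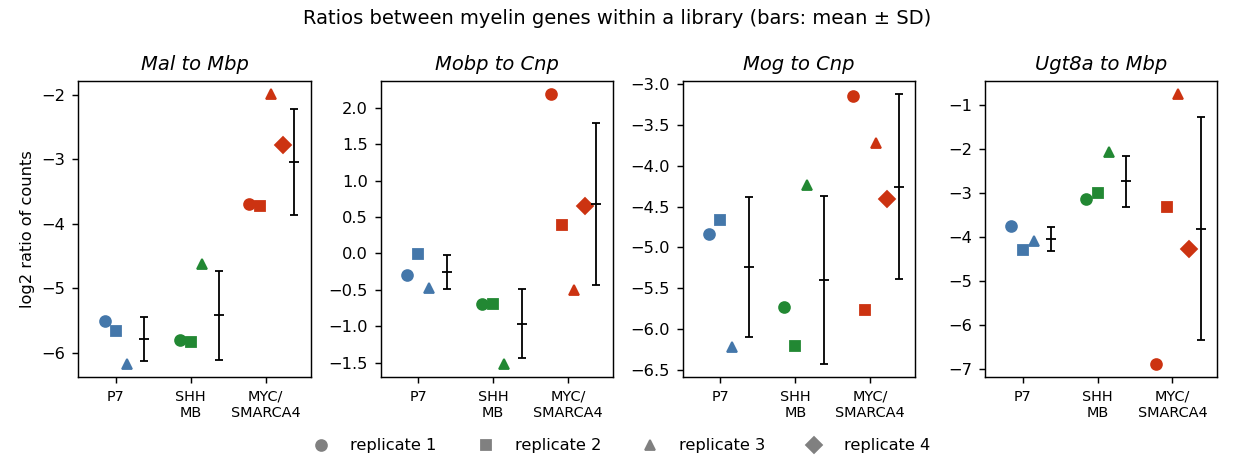
Log2 ratio of counts between 2 myelin genes within a library, by group; symbols give the replicate number and bars the mean ± SD of a group. Mal to Mbp separates tumors (-3.72 to -1.99) from the other libraries (-6.17 to -4.63), whereas Mog to Cnp overlaps in all groups and Ugt8a to Mbp spans -6.87 to -0.76 in tumors.

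The members followed each other over the 10 libraries to different degrees. Pearson's r of log2 CPM with the mean of the other 8 was 0.966 for Mbp, 0.957 for Cnp, 0.956 for Mobp, 0.941 for Mag and 0.868 for Cldn11. It was 0.723 for Mog, 0.722 for Mal, 0.667 for Opalin and 0.316 for Ugt8a. The 10 points share their library, depth and group, and tumor 1 weighs on them: without it, in a comparison chosen after seeing the data, r was 0.976 for Cnp and 0.942 for Mbp, but 0.481 for Mal, 0.450 for Mog and 0.403 for Opalin, and 0.600 for Ugt8a. Among the tumors, 6 of 9 genes had the order tumor 1, 2, 4, 3 from high to low, and Mog, Opalin and Ugt8a did not.

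Of 22150 other genes with a mean log2 CPM of at least 1, the 10 whose pattern over the 10 libraries was most like the mean of the members were Cacna2d2, Cdkl1, Pcp2, Gm15631, Tbc1d30, Slc1a6, Pld5, Gm10080, Il16 and Slc4a8, with Pearson's r from 0.981 to 0.968. Pcp2 and Slc1a6 are markers of Purkinje cells. Without tumor 1 their r was 0.939 to 0.972. Myrf, a transcription factor of the oligodendrocyte lineage, was at rank 32 with an r of 0.947.

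Next, the members were set beside earlier and later genes of the same lineage. As a sum, markers of committed and newly formed oligodendrocytes were lower in each tumor than in each P7 cerebellum. For the myelin genes this held in tumors 2 to 4 only. The markers summed to 496, 395, 257 and 323 CPM in tumors 1 to 4, against 550 to 631 CPM in P7 cerebella and 571 to 603 CPM in SHH MB. Of 10 genes, 4 fell against P7 cerebella and 0 rose, where 2.27% of all genes fell, and 3 fell against SHH MB, where 2.26% did. Not all moved this way: 3 of 10 were fitted higher in tumors against P7 cerebella and 2 of 10 against SHH MB. Over all genes, 48.1% and 50.4% were fitted higher. The median log2 fold changes of the list were -1.21 and -0.71. Gpr17, a receptor that marks the step before myelination, fell by 3.67 on the log2 scale against P7 cerebella (adjusted p = 0.000451) and by 2.71 against SHH MB (adjusted p = 0.00132, both edgeR). Its levels were 4.2 to 11.2 CPM in tumors, 94.3 to 110 CPM in P7 cerebella and 35.1 to 61.8 CPM in SHH MB. Enpp6, which marks newly forming oligodendrocytes, fell by 2.88 and 1.70 (adjusted p = 0.00453 and 0.0429 by edgeR).

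Markers of oligodendrocyte precursor cells summed to 246, 697, 364 and 615 CPM in tumors 1 to 4, below P7 cerebella with 876 to 987 CPM and SHH MB with 1094 to 1246 CPM. Tumor 1, the highest in myelin genes, was the lowest here. Of 10 genes, 3 fell against P7 cerebella, C1ql1, Cacng4 and Cspg4, and 4 fell against SHH MB, the same 3 and Xylt1. Over all genes, 2.27% and 2.26% fell in these comparisons. Pdgfra, the growth factor receptor of these cells, did not pass either test, with 18.1 to 142 CPM in tumors, 124 to 132 CPM in P7 cerebella and 160.0 to 166 CPM in SHH MB.

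Lineage transcription factors summed to 152 to 261 CPM in tumors, compared with 354 to 398 CPM in P7 cerebella and 449.9 to 504 CPM in SHH MB. Such sums weigh abundant genes most: mean log2 CPM over the 10 libraries was 6.80 for Zfp536, against 3.92 for Olig2 and 3.80 for Sox10. Among newly formed markers, Fyn (7.44) and Cemip2 (6.58) were far above Gpr17 (4.86) and Enpp6 (3.01). Among precursor markers, Ptprz1 (7.79) and Vcan (7.34) were abundant. Of 10 factors, 4 fell against P7 cerebella, Sox8, Olig2, Nkx2-2 and Zfp488, and 4 against SHH MB, Olig2, Sox8, Olig1 and Nkx2-2. Over all genes, 2.27% and 2.26% fell. Olig2, which specifies the lineage, fell by 1.76 on the log2 scale against P7 cerebella (adjusted p = 0.0105) and by 3.87 against SHH MB (adjusted p = 6.28e-05, both edgeR), and it was also the 1 factor that differed between both comparison groups, where it rose by 2.12 in SHH MB (adjusted p = 0.0268, where 0.177% of all genes rose). Sox10 had a log2 fold change of -1.62 ± 0.45 (SE) against P7 cerebella (adjusted p = 0.0517 by edgeR) and Myrf of -0.20 ± 0.54 (adjusted p = 0.826). Relative to Sox10, the log2 ratio of Mal counts was 0.89 to 3.32 in tumors, -1.47 to -0.80 in P7 cerebella and -2.93 to -2.48 in SHH MB. That of Mbp was 2.88 to 7.00 in tumors, 4.39 to 4.71 in P7 cerebella and 1.91 to 3.33 in SHH MB. That of Ugt8a was 0.13 to 2.84, 0.09 to 0.95 and -0.16 to 0.20. For Mbp and Ugt8a, tumors thus overlapped with both other groups. The share over all genes was not counted for these ratios.

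Other genes of mature oligodendrocytes, 25 in all, summed to 1230, 487, 223 and 451 CPM in tumors 1 to 4, 450 to 521 CPM in P7 cerebella and 461 to 587 CPM in SHH MB. Against P7 cerebella 1 rose and 2 fell, where 3.99% of all genes rose and 2.27% fell. Anln rose, at 1.16 (adjusted p = 0.0247). Gal3st1, the sulfotransferase that acts on the product of Ugt8a, fell at -1.84 and Prr18 at -1.46 (adjusted p = 0.0217 and 0.0368, all edgeR). Anln encodes a protein of cell division as well as of myelin. Against SHH MB 2 fell, Prr18 and Hhip, and 0 rose, where 2.26% of all genes fell and 2.43% rose. In the 2 comparisons, however, 13 and 14 of 25 were fitted higher, where 48.1% and 50.4% of all genes were. The median log2 fold changes were 0.12 and 0.30, below the 1.51 of the members against SHH MB. The similar sums of SHH MB and P7 cerebella do not show how most genes of the list moved. Between these groups 19 of 25 were fitted lower in SHH MB, where 56.2% of all genes were, with a median of -0.47. The sum includes Anln and also Enpp2, which is among the choroid plexus markers as well.

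**Figure D5:**
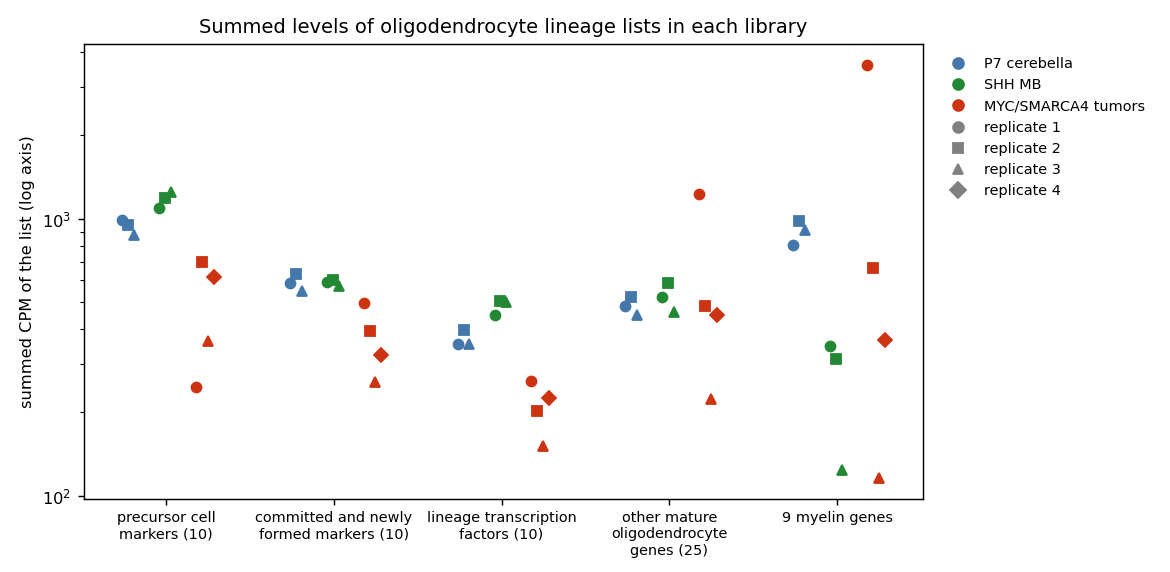
Summed CPM of 5 lists of the oligodendrocyte lineage per library on a log axis; colors give the group and symbols the replicate number, and numbers of genes stand in parentheses. Precursor, newly formed and transcription factor lists are lower in each of the 4 tumors than in each P7 cerebellum and SHH MB, whereas the 9 myelin genes range from 116 to 3604 CPM in tumors. A sum weighs the abundant genes of its list most.

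Genes of cholesterol synthesis, which supply the main lipid of myelin, summed to 563 to 819 CPM in tumors, 914 to 989 CPM in P7 cerebella and 613 to 666 CPM in SHH MB. Of 15 genes, Hmgcs1 fell against P7 cerebella (-0.99, adjusted p = 0.0483 by edgeR), where 2.27% of all genes fell. Against SHH MB 0 passed, where 4.68% of all genes did. Genes of the node and paranode, where the myelin loops meet the axon, summed to 1795 to 7295 CPM in tumors, 4251 to 4718 CPM in P7 cerebella and 2965 to 3237 CPM in SHH MB. Of these 13 genes 0 passed against P7 cerebella, where 6.25% of all genes did. Among those that rose against SHH MB were the axonal potassium channel genes Kcna1 and Kcna2 (3.94 and 2.502, adjusted p = 0.00325 and 0.0285 by edgeR), where 2.43% of all genes rose. None of 8 genes of Schwann cell myelin passed in either comparison with tumors, where 6.25% and 4.68% of all genes did. These 8 genes summed to 32.1 to 80.6 CPM in tumors, 42.7 to 53.9 CPM in P7 cerebella and 41.2 to 43.2 CPM in SHH MB.

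Markers of other cells moved with the myelin genes among the tumors. Purkinje cell markers summed to 12773, 3030, 428 and 2143 CPM in tumors 1 to 4, compared with 1505 to 1695 CPM in P7 cerebella and 480.2 to 805 CPM in SHH MB. Mature granule neuron markers summed to 5705, 3009, 959 and 1330 CPM in tumors 1 to 4, 1316 to 1475 CPM in P7 cerebella and 790.2 to 914 CPM in SHH MB. Both had the order of the summed members, tumor 1, 2, 4, 3, as had 6 of 15 lists in all, the other 4 being other mature oligodendrocyte genes, committed and newly formed markers, node and paranode genes, and endothelial markers. Of 10 Purkinje cell markers 0 rose against P7 cerebella and 3 against SHH MB, and of 10 granule neuron markers 4 and 6 rose, where 3.99% and 2.43% of all genes did. Proliferation markers had the opposite order, with 153, 2128, 2326 and 2176 CPM in tumors 1 to 4, 958 to 1265 CPM in P7 cerebella and 2505 to 3116 CPM in SHH MB.

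Astrocyte and Bergmann glia markers summed to 1138, 2860, 535 and 2206 CPM in tumors 1 to 4, against 2287 to 2351 CPM in P7 cerebella and 1939 to 2264 CPM in SHH MB. Microglia markers reached 56.4 to 193 CPM in tumors, 91.0 to 95.7 CPM in P7 cerebella and 55.1 to 91.2 CPM in SHH MB. Endothelial markers reached 109 to 418, 204 to 223 and 197 to 241 CPM, meninges and fibroblast markers 478 to 2568, 624 to 721 and 550 to 771 CPM, and choroid plexus markers 92.5 to 215, 751 to 1377 and 409 to 1533 CPM in the same order of groups. No marker of any list was at or under 3 counts in every library of a group. The part that the makeup of the samples has in the levels of the myelin genes was not tested.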

How the data were processed

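RNA was extracted from FFPE tissue, depleted of ribosomal RNA and made into libraries with the CORALL kit. Per the submitters' processing notes, the authors checked reads with FastQC 0.73, trimmed them with Trimmomatic 0.38.1, aligned them to GRCm39 with STAR 2.7.8a and counted them per gene with featureCounts 2.0.1. The deposited counts are whole numbers without normalization. The authors also deposited log2 values from the variance-stabilizing transformation of DESeq2 2.11.40.7, used here with limma as an alternative.

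Libraries were grouped by their labels. Nothing states whether P7 cerebella or SHH MB came from separate litters, so p-values measure the spread between these samples. Counts were tested with edgeR 4.0.16 (R 4.3.3; TMM, filterByExpr by group, quasi-likelihood F-test, all 10 libraries in the same fit, Benjamini-Hochberg over 29952 genes, adjusted p up to 0.05, no fold threshold). The common dispersion was 0.178. CPM use TMM library sizes, log2 CPM a prior count of 2, and intervals and floors cover counting error only. The study's own thresholds (2.5 for the log2 fold change, 0.01 for the adjusted p) were an alternative. Others were DESeq2 1.42.0, limma 3.58.1 on the deposited log2 values, RLE factors, no filter or at least 10 counts in each library, only the 2 groups compared, robust estimation, a replicate block, library sizes without mitochondrial and rRNA-like genes, and each library left out. The procedure was tested on simulated data with the same dispersion in each library. The wider spread between tumors was therefore not covered by it. Exact permutation tests were two-sided.

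The members and the 16 lists (179 genes) were chosen with earlier results of these data known. All members are named. Of a list, at most 4 genes with the lowest p in a comparison are named, and besides these Sox10, Myrf and Pdgfra, chosen as lineage markers after their values were seen. The 10 genes most like the members are those with the highest Pearson's r. The Mbp promoter was not analysed here. A result of the node and paranode list is not reported here.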

Additional observations from a re-analysis of the deposited data

Results flagged for a closer look

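The summed level of the 9 myelin genes in the 4 MYC/SMARCA4 tumors held 1 library far from the others. Tumor 1 had 3604 CPM and the next tumor 666 CPM, and this gap was 0.842 of the whole range of the group, above the critical value of Dixon's test for 4 samples. It was the 1 of 20 values tested in this way that stood out, and chance gives about 1 in 20. The summed level was tested on the linear scale only, on which a high library weighs more than on the log2 scale. As log2 CPM, none of the 9 members stood out, with ratios from 0.424 (Mbp) to 0.809 (Mog) against a critical value of 0.829. In the same library mitochondrial genes took 6.36% of the counts, Purkinje cell markers reached 12773 CPM and proliferation markers 153 CPM, and the part of these in the summed level was not tested.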

How the results depend on the processing

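Settings are compared by the number of members that passed and by the log2 fold change. Against P7 cerebella, 0 members passed. DESeq2 and the fit without a filter on low counts each gave 1 (Mal), and leaving out single libraries gave 0 to 2. Against SHH MB, 1 passed, compared with 3 by DESeq2, 2 without a filter, 0 with only the 2 groups, 0 at the study's thresholds and 0 to 5 when single libraries were left out. For SHH MB against P7 cerebella, 0 passed, and 8 with only the 2 groups. The cause was not tested. The remaining 37 counts equalled the main one, many of them as 0 against 0. For SHH MB against P7 cerebella, fits without single libraries called only 0 to 6 of all genes. A count of 0 members says little there. All 27 levels kept within 1 SD with a prior count of 0.5.

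Several fold changes turned in sign. Against P7 cerebella, Mbp (0.30) was at -1.05 with limma, -0.14 with at least 10 counts in each library, -0.63 with the replicate block and -1.55 to 0.51 without single libraries. Mag (-0.05) was at 0.043 with DESeq2, 0.00066 with RLE factors, 0.0027 without a filter and -1.72 to 0.15 without single libraries. Opalin (0.10) was at -0.0020 with limma, -0.063 with only the 2 groups, -0.048 without mitochondrial and rRNA-like genes and -0.61 to 0.33 without single libraries. Cldn11 (0.15) was at -0.28, -0.24, -0.063, -0.10 and -0.043 with limma, at least 10 counts, only the 2 groups, the replicate block and without mitochondrial and rRNA-like genes, and at -0.67 to 0.28 without single libraries. Mobp and Mog ranged from -0.55 to 1.64 and from -0.75 to 1.25 without single libraries. Against SHH MB, Ugt8a was at -0.037 with at least 10 counts, and without single libraries Ugt8a ranged from -0.28 to 0.37, Mag from -0.19 to 1.74 and Opalin from -0.35 to 0.95. For SHH MB against P7 cerebella, Opalin ranged from -0.82 to 0.18, and the log2 ratio of Mog to Cnp differed by -0.73 to 0.26 without single libraries. Mog and Opalin were not among the genes with at least 10 counts in each library. The median of all genes moved from -0.05 to -0.26 with DESeq2 and -0.23 with limma against P7 cerebella.

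Libraries that share a replicate number did not deviate together: correlations were -0.274 to 0.162 in 9 such pairs and -0.242 to 0.298 in 18 others. With the replicate block, 0, 1 and 0 members passed in the 3 comparisons, and all genes called went from 1873 to 370, 1403 to 631 and 67 to 19. Mog and Opalin rest on 4 to 74 counts per library, which limits their precision.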
